A study of Mus musculus with 8 samples.

Results

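The 9 transcription factors of the striatal lineage described here, Six3, Isl1, Bcl11b, Foxp1, Foxp2, Ebf1, Sp9, Zfp503 and Ikzf1, were taken by symbol from the gene counts of 8 total RNA libraries. They are 9 of the 33885 symbols counted, and all 9 were present in the tables of both brain regions. The libraries came from adult male C57Bl6J mice, an inbred strain, and the titles of the mPFC libraries call them WT. Nucleus accumbens (NAc), the ventral part of the striatum, was taken from mice conditioned with 7.5 mg/kg intraperitoneal cocaine in a place preference chamber (n = 2) and from mice left in the home cage (n = 2). Medial prefrontal cortex (mPFC) was taken from mice that met an aggressive CD1 male in social defeat (n = 2) and from home-cage mice (n = 2). Exposed mice were dissected 15 min after the experience. The NAc libraries carry the numbers 1 and 2 in their titles, and the labels do not say what a number marks. The mPFC libraries were numbered 1 and 2 within a group in the order of their deposition. Nothing states that the libraries of a group are separate animals or pools of animals, and every p-value below therefore rests on the spread among these libraries alone, which may be technical.

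The principal neurons of the striatum are GABAergic projection neurons born in the lateral ganglionic eminence of the embryo. They divide into a direct pathway class, which expresses the dopamine receptor Drd1 and the peptide genes Tac1 and Pdyn, and an indirect pathway class, which expresses the dopamine receptor Drd2, the adenosine receptor Adora2a and the peptide gene Penk. In mouse development, the homeodomain factor Six3 and the zinc finger factor Sp9 are needed for indirect pathway neurons, and the zinc finger factor Ikzf1 (Ikaros), best known from lymphocytes, promotes the enkephalin class. The LIM homeodomain factor Isl1 and the helix-loop-helix factor Ebf1 act in direct pathway neurons, and the zinc finger factor Zfp503 (Nolz1) acts in striatal progenitors and early neurons of that class. Bcl11b (Ctip2), a zinc finger factor, marks projection neurons of both classes and also the deep-layer cortical neurons that project below the cortex. The forkhead factors Foxp1 and Foxp2 are found in striatal projection neurons and in subsets of cortical neurons.

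Each library held between 111901829 and 179479978 counts. The labelled regions were checked with marker genes: the summed level of 12 striatal projection neuron genes was 2820 to 7649 CPM (counts brought to 1 library size, using edgeR's TMM scaling of all 8 libraries) in the 4 NAc libraries and 1056 to 1173 CPM in the 4 mPFC libraries. The summed level of 15 cortical projection neuron factors was 1211 to 1414 CPM in NAc and 2329 to 2385 CPM in mPFC. In these tables, 99.4% of 321 protein-coding genes lying wholly inside another gene of the same strand and 100% of 493 lying wholly inside a gene of the opposite strand were at 0 in every library, against 12.3% of 15068 protein-coding genes with no overlap. Those are the values that counting over whole gene spans without strand, with shared reads dropped, would give. Intronic reads would then be part of every level below, and the reads of an antisense gene could not be told from those of the member it lies in. Gm20696 shares 44.4% of the span of Foxp1 and Cir1 shares 12.5% of the span of Sp9. Under that counting, those 2 members would be counted over part of their length. Six3 shares 6.76% of its span, and antisense transcripts of Six3, Ebf1 and Ikzf1 are annotated but were not analysed here.

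The windows below are the 250 bases before the RefSeq transcription start, on GRCm38.p6 (mm10), of 2 members whose level followed the number of the NAc library (Six3 and Isl1) and 2 that did not pass that test (Sp9 and Ikzf1). Capitals mark matches on either strand to the homeodomain core TAATTA, the forkhead core GTAAACA, the GC box GGGCGG and the CCAAT box CCAAT.

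Six3 (chr17:85620584-85620833, plus strand): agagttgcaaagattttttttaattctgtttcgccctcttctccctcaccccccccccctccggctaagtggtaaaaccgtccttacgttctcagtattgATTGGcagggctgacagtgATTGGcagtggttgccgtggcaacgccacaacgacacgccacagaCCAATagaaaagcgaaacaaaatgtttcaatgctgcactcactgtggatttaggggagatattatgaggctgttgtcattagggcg
Isl1 (chr13:116309689-116309938, minus strand): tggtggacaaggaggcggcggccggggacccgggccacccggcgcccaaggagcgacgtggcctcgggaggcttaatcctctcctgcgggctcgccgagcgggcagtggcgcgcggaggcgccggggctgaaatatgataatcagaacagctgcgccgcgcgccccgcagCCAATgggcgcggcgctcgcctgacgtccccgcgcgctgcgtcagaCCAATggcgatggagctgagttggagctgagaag
Sp9 (chr2:73271676-73271925, plus strand): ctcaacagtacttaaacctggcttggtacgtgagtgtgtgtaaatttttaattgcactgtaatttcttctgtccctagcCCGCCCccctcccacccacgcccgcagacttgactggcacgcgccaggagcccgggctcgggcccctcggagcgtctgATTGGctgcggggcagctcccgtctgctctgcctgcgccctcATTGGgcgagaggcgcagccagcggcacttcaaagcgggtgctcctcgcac
Ikzf1 (chr11:11685675-11685924, plus strand): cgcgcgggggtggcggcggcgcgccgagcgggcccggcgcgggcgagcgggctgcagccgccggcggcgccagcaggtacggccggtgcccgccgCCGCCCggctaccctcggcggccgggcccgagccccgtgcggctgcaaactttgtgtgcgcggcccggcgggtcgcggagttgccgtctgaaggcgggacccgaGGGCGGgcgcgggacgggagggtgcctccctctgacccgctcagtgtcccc

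The Six3 window held 3 CCAAT matches, the Isl1 window 2, and the Sp9 window 2 with 1 GGGCGG match, whereas the Ikzf1 window shown held 2 GGGCGG matches. No TAATTA or GTAAACA lay in these 4 windows. Of 32851 RefSeq windows of this length, 33.8% held CCAAT, 32.7% GGGCGG, 4.84% TAATTA and 3.17% GTAAACA. The Isl1 window had 33 CpG and the Ikzf1 window shown 44, against a median of 6 over all windows and 10 in the Six3 window. RefSeq gives Ikzf1 another start, whose window (chr11:11689927-11690176) had 1 CpG and none of the 4 motifs. RefSeq windows were found for 8 of the 9 members, 12 windows in all, and none was matched for Foxp2. The matches are descriptions of the letters only.

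Among the factors of indirect pathway neurons, Six3 (chr17:85613608-85629302, GENCODE M21 on GRCm38) was present in NAc and nearly without counts in mPFC. Its level was 45.0 and 15.4 CPM in cocaine libraries 1 and 2 and 55.9 and 13.3 CPM in home-cage libraries 1 and 2 of NAc. The mPFC libraries held 2 and 4 Six3 counts in home-cage mice and 1 and 4 counts after social defeat, against 1840 to 9898 counts in a NAc library. All 4 NAc libraries were above all 4 mPFC libraries, and the NAc libraries numbered 1 were above those numbered 2. In edgeR's quasi-likelihood test with Benjamini-Hochberg adjustment over all genes, the log2 fold change of NAc over mPFC was 10.41 (SE 1.15, adjusted p = 0.00912) in home-cage mice. It was 10.62 (SE 0.948, adjusted p = 0.00185) in exposed mice. As a ratio of summed counts this was 1530-fold in home-cage mice (95% interval 703 to 4170) and 1643-fold in exposed mice (95% interval 704 to 5061), intervals that cover counting error only. The value moved with single libraries. In home-cage mice it was 9.04 without NAc library 1, 11.11 without NAc library 2, 9.86 without mPFC library 1 and 11.11 without mPFC library 2. In exposed mice it was 9.65 without cocaine library 1, 10.01 without social defeat library 1 and 11.80 without social defeat library 2.

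Sp9 (chr2:73271925-73284706) lay at 20.5 and 19.7 CPM in the cocaine libraries and at 25.3 and 18.1 CPM in the NAc home-cage libraries. In mPFC it lay at 4.89 and 5.45 CPM in home-cage mice and at 4.93 and 5.22 CPM after social defeat. The regions did not overlap, and the 4 NAc libraries were closer together than they were for Six3. On the log2 scale, Sp9 was higher in NAc by 2.06 (SE 0.192, adjusted p = 0.00686) in home-cage mice and 2.0 (SE 0.0807, adjusted p = 0.000508) in exposed mice.

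Ikzf1 (chr11:11685003-11772926) had nearly the same level in every library. It lay at 7.73 and 7.68 CPM in the cocaine libraries, 7.04 and 8.16 CPM in the NAc home-cage libraries, 7.0 and 7.04 CPM in the mPFC home-cage libraries and 7.43 and 7.44 CPM after social defeat. The regions overlapped. Its regional log2 fold change was 0.11 (SE 0.131, adjusted p = 0.626) in home-cage mice and 0.07 (SE 0.0836, adjusted p = 0.576) in exposed mice, and it did not pass in either. Ikzf1 is also expressed by microglia and leukocytes. The 8 tested genes of that list held 0 calls in home-cage mice (median log2 fold change -0.20), where 12.4% of all tested genes were called. In exposed mice 0 were higher and 1 was lower, where 19.2% of all tested genes were called higher and 17.1% lower. The list's summed level was 123 to 144 CPM in NAc and 146 to 160 CPM in mPFC, with 2 of its 10 genes, P2ry12 and Itgam, listed at 0 in every library. The part of these cells in the Ikzf1 level was not tested.

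Among the factors of direct pathway neurons, Isl1 (chr13:116298281-116309689) was, like Six3, nearly without counts in mPFC. Its NAc level was 5.94 and 2.09 CPM in the cocaine libraries and 8.33 and 1.46 CPM in the home-cage libraries, which is 202 to 1474 counts. The mPFC libraries held 2 and 2 Isl1 counts in home-cage mice and 5 and 1 after social defeat. The regions did not overlap. The Isl1 log2 fold change was 8.16 (SE 1.29, adjusted p = 0.0211) in home-cage mice, a 328-fold ratio of summed counts (95% counting interval 128 to 1204). In exposed mice it was 7.46 (SE 0.865, adjusted p = 0.00347), a 182-fold ratio (95% counting interval 83.3 to 497). Without NAc home-cage library 1 the fitted home-cage value was 6.41, or 85.0-fold, and without library 2 it was 8.92, or 484-fold. In exposed mice it was 6.51 without cocaine library 1, 8.97 without social defeat library 1 and 6.69 without social defeat library 2. Isl1 is also expressed by striatal cholinergic interneurons. Of 5 tested cholinergic genes, 3 were higher in NAc of home-cage mice and 5 in exposed mice. Over all tested genes, 7.01% and 19.2% were called higher in those comparisons. The summed level of the cholinergic list was 7.61 to 23.2 CPM in NAc and 1.56 to 1.98 CPM in mPFC. Slc18a3 of that list was at 0 in every library, and the part of these cells in the Isl1 result was not tested.

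Zfp503 (chr14:21983959-21989601) lay at 15.6 and 6.16 CPM in the cocaine libraries and at 20.6 and 5.16 CPM in the NAc home-cage libraries. In mPFC it lay at 1.29 and 1.51 CPM in home-cage mice and 1.54 and 1.68 CPM after social defeat. The lowest NAc library was above every mPFC library. In NAc, Zfp503 was higher by 3.19 on the log2 scale (SE 0.670, adjusted p = 0.0409) in home-cage mice and 2.77 (SE 0.450, adjusted p = 0.00838) in exposed mice. The home-cage value was 1.88 without NAc library 1 and 3.87 without library 2. The exposed value was 1.95 without cocaine library 1 and 3.29 without cocaine library 2.

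Ebf1 (chr11:44617317-45008091) lay at 48.5 and 37.9 CPM in the cocaine libraries and at 47.7 and 29.6 CPM in the NAc home-cage libraries. In mPFC it lay at 17.4 and 21.7 CPM in home-cage mice and 14.9 and 22.5 CPM after social defeat. The regions did not overlap. The log2 fold change of 1.22 (SE 0.216, adjusted p = 0.0107) passed in exposed mice, and that of 0.98 (SE 0.25, adjusted p = 0.0646) did not pass in home-cage mice. The home-cage value passed with the DESeq2 Wald test (adjusted p = 0.00272), without the low-count filter (adjusted p = 0.0189) and in a fit of all 8 libraries (adjusted p = 0.0423). It did not pass with another scaling of library sizes, RLE size factors (adjusted p = 0.0671). Leaving out single home-cage libraries gave 0.59 without NAc library 1 and 1.28 without NAc library 2. The value was 0.81 without mPFC library 1 and 1.14 without mPFC library 2. Ebf1 is also a gene of pericytes, and the summed level of 10 mural and endothelial genes was lower in NAc (169 to 183 CPM) than in mPFC (189 to 209 CPM). Of these, 0 were called higher and 1, Rgs5, lower in NAc of home-cage mice, where 7.01% of all tested genes were called higher and 5.35% lower. In exposed mice 1 was higher and 3 were lower, where 19.2% of all tested genes were called higher and 17.1% lower. The list holds endothelial genes as well, and the part of pericytes in the Ebf1 level was not tested.

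Among the factors of both projection neuron classes, Bcl11b (chr12:107910403-108003602) lay at 440 and 354 CPM in the cocaine libraries and 484 and 382 CPM in the NAc home-cage libraries. In mPFC it lay at 160 and 168 CPM in home-cage mice and 168 and 165 CPM after social defeat. The regions did not overlap, and the 4 mPFC libraries lay close together. For Bcl11b the log2 fold change was 1.39 (SE 0.152, adjusted p = 0.00912) in home-cage mice and 1.27 (SE 0.123, adjusted p = 0.00225) in exposed mice.

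Foxp1 (chr6:98925338-99522721) lay at 657 and 311 CPM in the cocaine libraries and 680 and 251 CPM in the NAc home-cage libraries. In mPFC it lay at 237 and 247 CPM in home-cage mice and 221 and 244 CPM after social defeat. The regions did not overlap, but NAc home-cage library 2 was 1.04 times the mPFC home-cage mean. The log2 fold change was 0.93 (SE 0.446, adjusted p = 0.224) in home-cage mice and 1.07 (SE 0.336, adjusted p = 0.0550) in exposed mice, and neither passed.

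Foxp2 (chr6:14901349-15441977) lay at 180 and 80.8 CPM in the cocaine libraries and 235 and 62.0 CPM in the NAc home-cage libraries. In mPFC it lay at 81.3 and 69.2 CPM in home-cage mice and 68.7 and 71.4 CPM after social defeat. Here the regions overlapped, since NAc home-cage library 2 was below all 4 mPFC libraries. The log2 fold change was 0.97 (SE 0.584, adjusted p = 0.316) in home-cage mice and 0.91 (SE 0.352, adjusted p = 0.0954) in exposed mice. Without NAc home-cage library 1 the home-cage value was -0.29, and without library 2 it was 1.63. The corresponding Foxp1 values were 0.05 without library 1 and 1.48 without library 2. In exposed mice, leaving out cocaine library 1 gave 0.43 for Foxp1 and 0.22 for Foxp2, and leaving out cocaine library 2 gave 1.51 and 1.37. Each of these fits kept 1 NAc library, so its spread came from the mPFC libraries alone and no p-value is given.

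**Figure D1:**
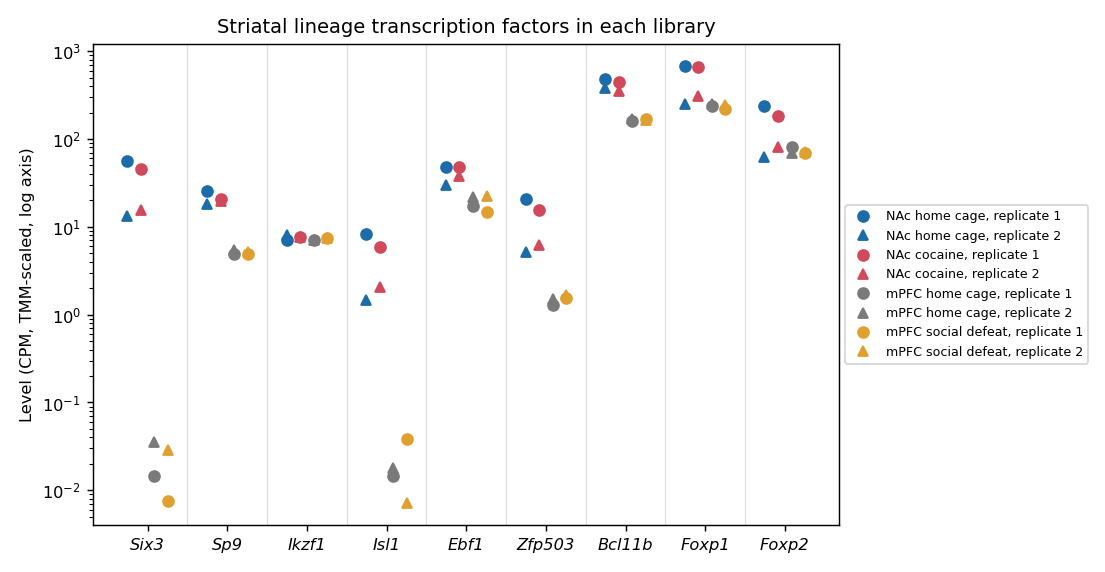
Level of each factor in each of the 8 libraries, in TMM-scaled CPM on a log axis, with circles for library 1 and triangles for library 2 of a group. Six3 and Isl1 sit at or below 0.0381 CPM in mPFC, Ikzf1 lies between 7.0 and 8.16 CPM in all libraries, and in NAc the circles of Six3, Isl1, Zfp503, Foxp1 and Foxp2 lie well above the triangles.

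Counted together, 5 of the 9 factors were higher in NAc than in mPFC of home-cage mice, where 7.01% of 18300 tested genes were called higher and 5.35% lower (12.4% in all). In exposed mice 6 of 9 were higher, where 19.2% of 18362 tested genes were called higher and 17.1% lower (36.3% in all). None was lower. The median log2 fold change of the 9 was 1.39 in home-cage mice and 1.27 in exposed mice, against 0.01 over all tested genes in each comparison. The 2 comparisons share no library, but in the second the experience differs between regions, so region and experience cannot be told apart there. The difference between the 2 regional contrasts passed for 0 of 9 factors and 0.0% of 18783 genes in edgeR, with 415 genes and 0 factors at an unadjusted p under 0.05. DESeq2 called 2 genes, neither a factor of the 9. All 4 NAc libraries lay above all 4 mPFC libraries for 7 of the 9, a grouping added after seeing the data, as did 24.1% of tested genes, and 46.9% lay wholly above or wholly below. Without NAc home-cage library 2, 8 factors were higher in home-cage mice, where 42.9% of 18741 genes were called in either direction. Without NAc home-cage library 1, 6 were higher and Foxp2 was lower, where 29.6% of 18646 genes were called. The home-cage calls rested on both mPFC libraries: without either of them, 0 factors and 0 genes were called (2680 and 2724 genes at an unadjusted p under 0.05), and adjusted p for the 5 ranged from 0.121 to 0.304. In exposed mice Zfp503 was lost without social defeat library 1 (adjusted p = 0.0871) or 2 (adjusted p = 0.0693), and Ebf1 without library 1 (adjusted p = 0.0590). These are bulk tissue values, in which fewer cells of a type and less RNA per cell cannot be told apart.

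**Figure D2:**
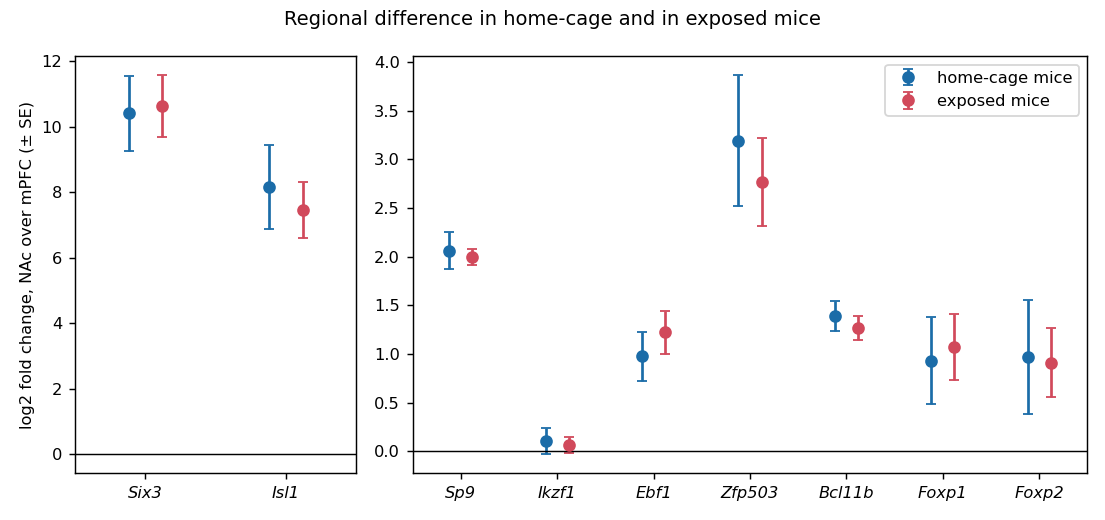
Log2 fold change of NAc over mPFC with its SE for each factor, in home-cage mice and in exposed mice (n = 2 libraries in each region), with Six3 and Isl1 on a scale of their own. Six3 reaches 10.41 and 10.62 and Isl1 8.16 and 7.46, whereas Ikzf1 lies at 0.11 and 0.07.

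Within NAc, the libraries numbered 1 and 2 were compared with treatment as a covariate, since the values above differ by that number. The comparison was chosen with those differences already known. Its p-values and calls therefore describe the difference and give no independent support for it. Of the 9 factors, 7 were higher in number 1, where 9.67% of 18418 tested genes were called higher and 9.16% lower (18.8% in all). The median of the 9 was 1.26 on the log2 scale, against -0.0043 over all tested genes. The largest differences among the 9 were those of Isl1 (log2 fold change 2.0, SE 0.183, adjusted p = 1.62e-06), Six3 (1.81, SE 0.106, adjusted p = 3.33e-08) and Zfp503 (1.67, SE 0.128, adjusted p = 3.14e-07). Foxp2 (1.54, SE 0.130, adjusted p = 7.2e-07) and Foxp1 (1.26, SE 0.102, adjusted p = 4.99e-07) followed. Ebf1 (0.53, SE 0.0874, adjusted p = 0.000458) and Bcl11b (0.33, SE 0.0881, adjusted p = 0.0149) differed less. Sp9 had 0.27 (SE 0.0998, adjusted p = 0.0693) and Ikzf1 -0.10 (SE 0.106, adjusted p = 0.587), and neither passed. Sp9 passed without the low-count filter (adjusted p = 0.0156). With no covariate, the Sp9 value was 0.42 without cocaine library 1 and 0.35 without cocaine library 2. It was 0.13 without home-cage library 1 and 0.22 without home-cage library 2. Bcl11b was lost without cocaine library 2 (adjusted p = 0.0563) or home-cage library 1 (adjusted p = 0.260). The labels give no meaning to the number, so a batch, a dissection and an animal cannot be told apart here.

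The level in number 1 divided by that in number 2 was 2.92 in cocaine libraries and 4.19 in home-cage libraries for Six3. It was 2.85 and 5.69 for Isl1, 2.53 and 3.98 for Zfp503, 2.23 and 3.8 for Foxp2, and 2.11 and 2.71 for Foxp1, again in cocaine and home-cage libraries in turn. All 5 of these ratios were above those of Ebf1 (1.28 and 1.61), Bcl11b (1.24 and 1.27), Sp9 (1.04 and 1.40) and Ikzf1 (1.01 and 0.863) in both treatments. Both libraries numbered 1 lay above both numbered 2 for 8 of the 9, all but Ikzf1, as did 28.3% of tested genes. Six3 and Sp9, both of the indirect pathway lineage, differed in their ratio within a library: there were 2.20 and 2.21 Six3 counts for each Sp9 count in the libraries numbered 1 (cocaine and home cage), and 0.784 and 0.736 in those numbered 2. That ratio was added after seeing the data and does not depend on the scaling of libraries.

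**Figure D3:**
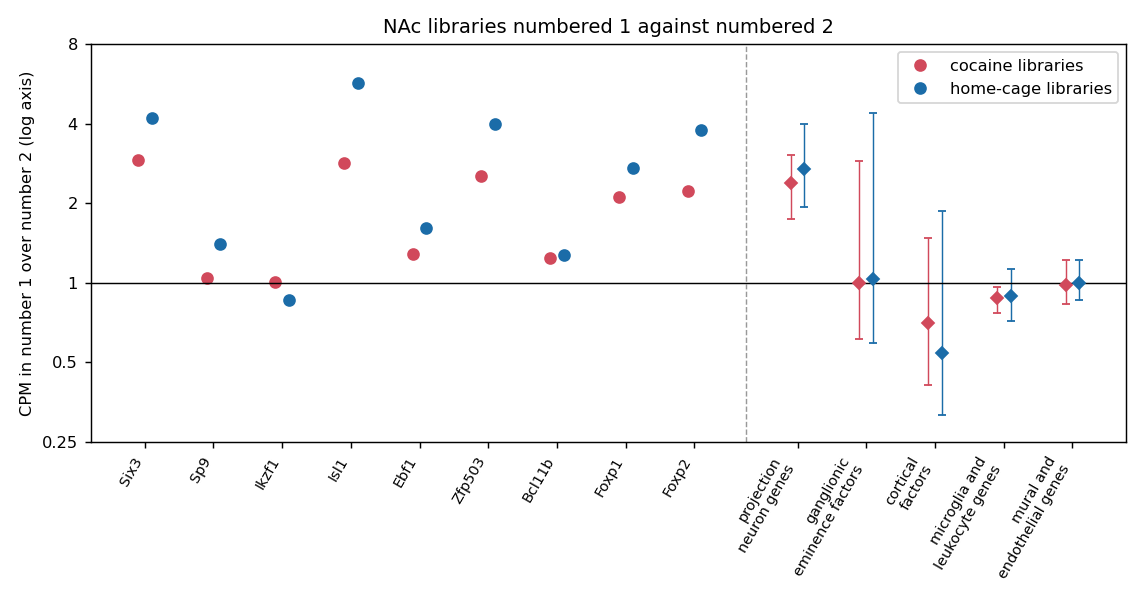
Level in the NAc library numbered 1 divided by that in the library numbered 2, on a log axis, for each factor (circles) and as the median (diamond) with the lowest and highest gene (bars) of 5 gene lists, in cocaine and in home-cage libraries. The ratios of Six3, Isl1, Zfp503, Foxp1 and Foxp2 lie between 2.11 and 5.69, and those of Sp9 and Ikzf1 between 0.863 and 1.40.

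Genes of mature striatal projection neurons were also higher in the libraries numbered 1. All 12 passed, with a median log2 fold change of 1.33, and 10 of the 12 were higher in NAc than in mPFC of home-cage mice, with a median of 2.43. Examples are Syndig1l, a synapse differentiation protein relative (1.62 between numbers, SE 0.0795), and Scn4b, a sodium channel beta subunit (1.72, SE 0.0876). Of 6 direct pathway genes, 3 were higher in NAc of home-cage mice and 5 in number 1, among them Drd1 (1.62, SE 0.0996), whereas Eya1, a transcriptional coactivator, was lower in number 1 (-0.63, SE 0.0987). Of 5 tested indirect pathway genes, 4 were higher in NAc of home-cage mice and 5 in number 1, among them Drd2 (2.0, SE 0.108) and Adora2a (2.03, SE 0.110). Of 5 tested cholinergic genes, 4 were higher in number 1, among them Chat, the enzyme that makes acetylcholine (1.60, SE 0.131). Over all tested genes, 9.67% were called higher in number 1 and 9.16% lower. Between regions in home-cage mice, 7.01% of all tested genes were called higher in NAc.

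Cortical factors were mostly lower in number 1. Of 14 tested cortical projection neuron factors, 11 were lower and 2 higher in NAc number 1, with a median of -0.76. Fezf2, a factor of subcerebral projection neurons, had -1.39 (SE 0.124). In the home-cage regional comparison 5 of the 14 were lower in NAc and 1 higher. Oligodendrocyte genes moved too: all 6 were higher in number 1 (median 0.45), with a median CPM ratio of 1.10 in cocaine libraries and 1.68 in home-cage libraries, 0 passed between regions in home-cage mice, and all 6 were higher in NAc of exposed mice (median 0.96). Of 8 microglia and leukocyte genes 0 were higher and 1 lower in number 1, and of 10 mural and endothelial genes 0 passed. Over all tested genes, 9.67% were called higher in number 1 and 9.16% lower. Between regions the shares called higher and lower in NAc were 7.01% and 5.35% in home-cage mice. They were 19.2% and 17.1% in exposed mice. The part of tissue makeup in the 7 factor calls was not tested.

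The other developmental factors of the ganglionic eminences split. Of 17, 12 were higher in NAc than in mPFC of home-cage mice and 1 lower, with a median of 1.98. Over all tested genes there, 7.01% were called higher and 5.35% lower. Between the NAc numbers, 8 were higher in number 1 and 4 lower, with a median of 0.02, where 9.67% of all tested genes were called higher and 9.16% lower. The retinoid receptors Rarb (1.83, SE 0.122) and Rxrg (1.17, SE 0.0830) were among those higher in number 1. So were the homeobox genes Dlx5 (0.60, SE 0.101) and Dlx6 (0.52, SE 0.104), whereas Dlx1 (-0.66, SE 0.0773) and Dlx2 (-0.27, SE 0.0835) were lower. Meis1, a homeobox factor, was 2.47 (SE 0.15) higher in NAc of home-cage mice on the log2 scale and had -0.15 between numbers, which did not pass. Dlx6os1, the antisense neighbour of Dlx6, had 2.22 (SE 0.488) between regions, a call, and -0.72 (SE 0.318) between numbers, which did not pass. Its level was low, at 0.187 to 0.329 CPM in NAc and 0.0360 to 0.0737 CPM in mPFC. Under the counting inferred above, reads shared with a counted Dlx gene would be dropped, leaving only the rest of its span.

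**Figure D4:**
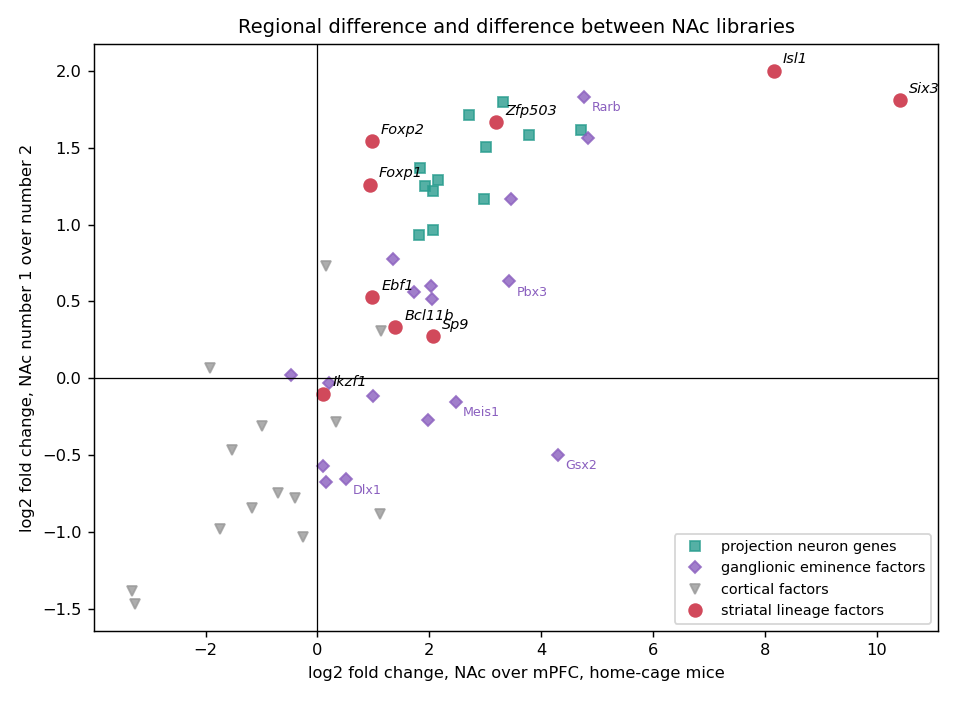
Log2 fold change of NAc over mPFC in home-cage mice (horizontal axis) and of NAc number 1 over number 2 (vertical axis), 1 point a gene, for the 9 factors and 3 gene lists. The 2 axes share the NAc home-cage libraries, so the points show each value side by side and no relation is drawn; Sp9 lies at 2.06 and 0.27, and Foxp2 at 0.97 and 1.54.

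Of the 14 tested family relatives of the 9, 2 were higher in NAc of home-cage mice, Sp8 (2.43) and Bcl11a (0.82, SE 0.112), and 1 was lower, Six4 (-2.72, SE 0.336), with a median of 0.12. Over all tested genes of that comparison, 7.01% were called higher and 5.35% lower. In exposed mice 3 of 15 relatives were higher and 3 lower, where 19.2% of all tested genes were called higher and 17.1% lower. Between numbers, 9.67% of all tested genes were called higher in number 1 and 9.16% lower. Of 13 relatives, 1 was higher in number 1 and 3 were lower, with a median of -0.20. The one higher was Ikzf3 (1.87, SE 0.275). Sp8, the closest relative of Sp9, was lower in number 1 (-1.22, SE 0.103), where Sp9 had 0.27. Ikzf5 was at 0 in every library.

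Levels of different factors were compared per kilobase of the gene span not shared with another counted gene. In NAc of home-cage mice Bcl11b led with 4.64 CPM per kb, followed by Six3 (2.37), Zfp503 (2.28), Sp9 (1.94), Foxp1 (1.40), Isl1 (0.429), Foxp2 (0.275), Ebf1 (0.0989) and Ikzf1 (0.0864), all in CPM per kb. Six3 and Zfp503, with SDs of 2.06 and 1.93 over 2 libraries, did not differ from each other or from Sp9 beyond their spread. In mPFC of home-cage mice the order was Bcl11b (1.76), Foxp1 (0.730), Sp9 (0.463), Zfp503 (0.248), Foxp2 (0.139), Ikzf1 (0.0799), Ebf1 (0.05), Six3 (0.00173) and Isl1 (0.00143), in CPM per kb. The order depended on the length used: per kilobase of exon, Foxp1 was in place 2 of the 9 and Foxp2 in place 3 after cocaine, against 5 and 7 per kilobase of span.

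The genes whose profile over the 8 libraries lay nearest to each factor were found among 13134 genes, as the root mean square distance of centred log2 CPM. Drd3, a dopamine receptor of the ventral striatum, was nearest to Six3 (1.23), before Serpina9 (1.43), and second to Isl1 (0.350), whose nearest was Dsg1c (0.263), a desmosomal cadherin. Zfp503 lay nearest to Ntn1 (0.157) and, nearest, Ppp1r1b (0.148), which encodes DARPP-32, a phosphatase inhibitor of striatal projection neurons. Sp9 lay nearest to the potassium channel gene Kcnn3 (0.0857) and to Dlx6 (0.115). Foxp1 lay nearest to Syndig1 (0.0866) and Wnt2 (0.0912), and Foxp2 to Gpat3 (0.0888) and Syndig1 (0.137). Bcl11b lay nearest to Dpp6 (0.037), a potassium channel subunit, and Wscd2 (0.0716), Ebf1 to Fsip1 (0.0699) and Pde6a (0.106), and Ikzf1 to Sema4c (0.0212) and Fbl (0.0259). The distance of Six3 to its nearest gene was larger than that of any other factor, so Drd3 was no close match. The Six3 and Isl1 distances also depend on 1 to 5 counts in each mPFC library and on the prior count of 2 added before the log. All these distances are descriptions over 8 libraries that share their regions and numbers.

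Cocaine conditioning was compared with the home cage in NAc to ask whether the factors differed shortly after the experience. None of the 9 passed (median -0.12, against -0.01 over all tested genes), and the cocaine and home-cage libraries overlapped for all 9, where 24.3% of tested genes had no overlap. Log2 fold changes were -0.19 (SE 0.843) for Six3, -0.28 (SE 0.941) for Isl1, -0.24 (SE 0.788) for Zfp503 and -0.18 (SE 0.740) for Foxp2. They were 0.06 (SE 0.604) for Foxp1, 0.17 (SE 0.271) for Ebf1, -0.12 (SE 0.187) for Bcl11b, -0.11 (SE 0.182) for Sp9 and 0.03 (SE 0.120) for Ikzf1. edgeR called 0 of 18418 genes (0.0%), with 211 genes and 0 of the 9 factors at an unadjusted p under 0.05, and DESeq2 called 4 genes, none of them among the 9. The library numbers enter this spread: without single libraries the Six3 value ran from -1.16 to 1.19 and the Isl1 value from -1.23 to 1.47. Set side by side within a number, a description added after seeing the data, the log2 ratio of cocaine to home cage was -0.31 in number 1 and 0.21 in number 2 for Six3, -0.49 and 0.51 for Isl1, and -0.38 and 0.38 for Foxp2. For these 3 the ratios had opposite signs in the 2 numbers. The signs were also opposite for Zfp503 (-0.40 and 0.25), Foxp1 (-0.05 and 0.31), Sp9 (-0.30 and 0.12) and Ikzf1 (0.13 and -0.09). Bcl11b (-0.14 and -0.11) and Ebf1 (0.02 and 0.36) had the same sign in both numbers.

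Social defeat was compared with the home cage in mPFC. Of the 7 factors with enough counts to be tested, 0 passed, where 0.549% of 18027 genes were called higher and 0.155% lower (0.704% in all), and the smallest adjusted p among them was 0.908. The values were 0.20 (SE 0.162) for Zfp503, 0.07 (SE 0.101) for Ikzf1, 0.01 for Bcl11b, -0.03 for Sp9, -0.07 for Foxp1 and for Ebf1, and -0.11 for Foxp2. Both social defeat libraries lay above both home-cage libraries for 2 of the 9, Zfp503 and Ikzf1, where 34.1% of tested genes had no overlap in either direction. Six3 and Isl1, with at most 5 counts in an mPFC library, were not tested.

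**Figure D5:**
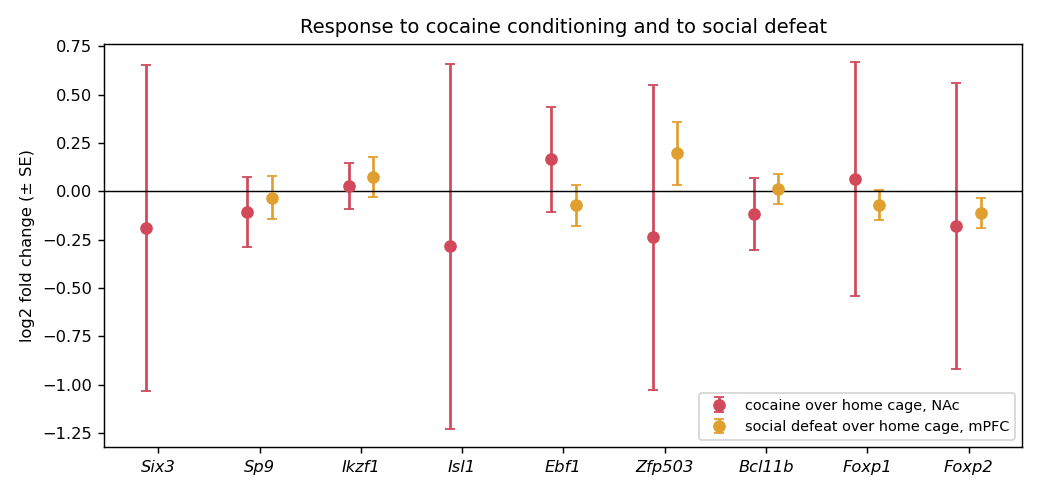
Log2 fold change with its SE after cocaine conditioning in NAc and after social defeat in mPFC, each over home cage (n = 2 libraries a group). Six3 and Isl1 have no mPFC value; the cocaine values of Six3, Isl1, Zfp503, Foxp1 and Foxp2 carry SEs of 0.604 to 0.941, and those of Ikzf1, Sp9 and Bcl11b of 0.120 to 0.187.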

How the data were processed

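Total RNA was sequenced from NAc and mPFC tissue. Per the submitters' processing notes, reads were aligned to mm10 with STAR 2.7.1a and counted with featureCounts; no source used here names its version, annotation or options. The authors deposited whole-number counts of reads, unscaled, in a table of 33885 symbols for each region. Coordinates came from GENCODE M21 (GRCm38), which matched 32962 symbols, and promoter windows from RefSeq (GRCm38.p6). Whether counting took whole gene spans was inferred from genes lying inside other genes.

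Counts were tested in R 4.3.3 with edgeR 4.0.16 (filterByExpr, TMM, estimateDisp, glmQLFit and glmQLFTest), with a call at a Benjamini-Hochberg adjusted p under 0.05 over all tested genes. The SE was the absolute log2 fold change over the square root of F. DESeq2 1.42.0 was an alternative; tables and plots were made with pandas 2.3.3 and matplotlib 3.10.9 in python 3.11.15. The edgeR fits were checked on simulated counts. Other alternatives were no low-count filter, other scaling, a fit of all 8 libraries, the replicate number as a block, and leaving out each library. Libraries of a group differed by more than counting noise, so none was merged.

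All 9 factors are named in every comparison. Other genes come from 13 lists (family relatives, ganglionic eminence factors, striatal projection neuron, direct pathway, indirect pathway, cholinergic, microglia and leukocyte, mural and endothelial, septal and hypothalamic, oligodendrocyte and astrocyte genes, cortical factors, and overlapping or antisense genes). Up to 2 of each are named by the smallest p in the home-cage regional comparison and up to 2 by that between NAc numbers; Sp8, Meis1, Dlx1, Dlx2, Dlx5, Dlx6, Eya1 and genes at 0 were named after their values were seen. Some list genes that this rule would name are not reported here. Nearest profiles were taken among genes with a mean of at least 1 CPM, leaving out provisional models. The members and lists were chosen with earlier results of these data known.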

Additional observations from a re-analysis of the deposited data

How the results depend on the processing

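Over the alternatives, 386 factor values kept direction and side of the threshold, 13 gained a call, 16 lost one and 46 changed sign. Of the 46, the 1 with a call was Foxp2 between regions in home-cage mice, at -0.29 without NAc home-cage library 1. That fit kept 1 NAc library. The other 45 were uncalled before and after. Factors whose sign changed without single libraries had these log2 ranges over those fits. Between regions in home-cage mice, Foxp2 ran from -0.29 to 1.63 and Ikzf1 from -0.0073 to 0.21. For cocaine, the ranges were -1.16 to 1.19 for Six3, -1.23 to 1.47 for Isl1, -0.28 to 0.068 for Bcl11b, -0.58 to 0.96 for Foxp1, -0.88 to 1.09 for Foxp2, -0.14 to 0.56 for Ebf1, -0.33 to 0.16 for Sp9, -1.06 to 1.09 for Zfp503 and -0.071 to 0.14 for Ikzf1. For social defeat, they were -0.025 to 0.048 for Bcl11b, -0.22 to 0.0078 for Foxp2, -0.40 to 0.19 for Ebf1 and -0.11 to 0.044 for Sp9. For the difference of the regional contrasts, they were -0.77 to 1.57 for Six3, -1.65 to 1.03 for Isl1, -0.29 to 0.045 for Bcl11b, -0.51 to 1.02 for Foxp1, -0.76 to 1.19 for Foxp2, -0.066 to 0.62 for Ebf1, -0.29 to 0.18 for Sp9, -1.25 to 0.88 for Zfp503 and -0.16 to 0.063 for Ikzf1. The cause was not tested for any of these. Genes called between regions in home-cage mice numbered 2262, against 3622 with DESeq2, 4654 in a fit of all 8 libraries, and 0 to 8048 without single libraries, with 0 to 8 factors. Leaving out a library leaves 1 sample in an arm, which is assumed to vary like the other group. In exposed mice 6672 genes were called, and 1133 to 9334 without single libraries, with 4 to 8 factors. For the difference of the regional contrasts, DESeq2 called 2 genes, and leaving out single libraries gave 0 to 1. For cocaine, DESeq2 called 4 genes. For social defeat, 127 genes were called, 5 in a fit of all 8 libraries and 58 to 238 without single libraries. Between NAc numbers 3469 genes were called, 2223 with DESeq2, and 1307 to 2745 without single libraries (1497 without NAc home-cage library 2), with 6 to 8 factors. No label states that equal numbers pair samples. Deviations of same-numbered cocaine and home-cage NAc libraries had r = 0.571, those of NAc and mPFC home-cage libraries r = 0.0685, across genes. With the replicate number as a block, cocaine had 38 genes and 0 factors called, with Six3 at -0.06, Isl1 at -0.05 and Foxp2 at 0.0039 (its sign changed), and the home-cage regional comparison 2174 genes and 4 factors, Zfp503 (2.90, adjusted p = 0.0565) being lost. Depth limits Six3 and Isl1 in mPFC, at 1 to 5 counts a library.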

Other observations

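Several genes outside the striatal projection neuron lineage also differed between the NAc libraries numbered 1 and 2 (edgeR, treatment as covariate). Over all tested genes, 9.67% were called higher in number 1 and 9.16% lower. Zic1 and Zic4, zinc finger factors of the septum, were lower in number 1, with log2 fold changes of -0.49 (SE 0.136) and -0.88 (SE 0.152). They were the 2 of 5 tested septal and hypothalamic genes that passed. Nkx2-1, a homeodomain factor of the medial ganglionic eminence and its interneurons, was higher in number 1, at 1.57 (SE 0.178); it is named with its value already known. Gfap, an intermediate filament gene of astrocytes, was lower in number 1, at -0.63 (SE 0.113), and was the only one of 6 astrocyte genes to pass. In home-cage mice, Aldh1l1 was the 1 of 6 astrocyte genes called lower in NAc than in mPFC, at -0.41 (SE 0.0912). Of 5 tested septal and hypothalamic genes, 0 passed in that comparison, where 7.01% of all tested genes were called higher and 5.35% lower.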
